A study of Homo sapiens with 24 samples.

Results

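The genes described here are 10 structural markers of epithelial and mesenchymal cells. They are the cadherins CDH1, CDH2 and CDH3, the adhesion molecule EPCAM, the claudins CLDN1, CLDN4 and CLDN7, the intermediate filament protein VIM, and the matrix proteins FN1 and SPARC. They were taken by symbol from 4 tables of expected counts that each list 60448 symbols, 19216 of which were matched to protein-coding genes, and 10 of 10 were found.

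RNA was sequenced in 24 libraries of 2 human cell lines from prostate epithelium, the SV40-immortalized BPH-1, grown with serum, and the HPV18-immortalized RWPE-1, grown in serum-free keratinocyte medium with EGF and pituitary extract. Vector control cells (3 libraries of BPH-1, 1 of RWPE-1) carried the ILYW vector, cells named C-Raf parental (3 and 4) overexpressed non-mutated C-Raf, and metastasis-derived lines (6 and 7) were grown for about a week from tumors that C-Raf parental cells had formed in NSG mice after intracardiac injection. By the study's methods, the C-Raf overexpression vector used the Ub promoter, and both cell lines carried firefly and Gaussia luciferase reporters. Of the BPH-1 metastasis-derived lines, bone R071, bone R074 and the library titled bone R075 held 111173 to 464968 protein-coding counts, against 20573500 to 42010258 in the other 21 libraries, and they are described on their own. The title and the treatment label of both R075 libraries name different sites, so no site is used for them.

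Epithelial cells are held together by adherens junctions, built from CDH1 (E-cadherin) or CDH3 (P-cadherin), which basal prostate cells also use, and sealed by tight junctions, whose strands are made of claudins. Mesenchymal cells carry CDH2 (N-cadherin), a VIM filament network and secreted matrix such as FN1 (fibronectin) and SPARC. A gain of the second set with a loss of the first is the textbook picture of an epithelial-mesenchymal transition, which the transcriptional repressors ZEB1 and ZEB2 can drive.

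Both lines carried the keratins of prostate epithelium, with 7 of 7 epithelial marker genes above 0 in each group, while KLK2 and KLK3, which mark luminal secretory cells, were at 0 in every vector control and parental library. RN7SL1, a noncoding RNA of the signal recognition particle, took 93.3% to 97.5% of all counts in the 3 shallow libraries, 4.6% to 30.3% in the 3 deep BPH-1 metastasis-derived libraries and at most 0.00932% elsewhere. All BPH-1 metastasis-derived lines were deposited in another table than the earlier BPH-1 stages, so a table effect and a stage effect cannot be told apart there. RWPE-1 stages are spread over 2 tables, 1 with the vector control, parental 1, LN1A, LN1B and Spine, the other with parental 2 to 4, Spine2, Bone4, Bone5 and Bone6. Nothing in the labels says that libraries of a group came from separate cultures, so the p-values measure the spread between these libraries only. In bulk RNA, fewer cells of a kind and less RNA per cell cannot be told apart.

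Levels below are protein-coding counts per 1000000 after TMM scaling (CPM), and log2 differences are from edgeR's quasi-likelihood fit, given with their standard error (SE). A gene is called at a Benjamini-Hochberg adjusted p below 0.05 over all genes tested. To compare genes with each other, CPM was divided by exon length (RPKM). On that scale the order of the genes differed between the lines. In BPH-1 C-Raf parental cells the leading genes were EPCAM with 84.1 ± 1.02, CLDN1 with 81.0 ± 0.668 and CLDN7 with 79.9 ± 0.757 RPKM (SD, n = 3), and VIM was last with 0.0315 ± 0.0162. In RWPE-1 C-Raf parental cells VIM led with 215 ± 28.3 RPKM (SD, n = 4), followed by FN1 with 126 ± 98.6 and CDH3 with 78.3 ± 15.5. The ranges of FN1 and CDH3 overlapped there, as did those of CDH1 (35.3 to 41.3 RPKM) and EPCAM (28.3 to 44.7 RPKM). CDH2 was the lowest of the 10 genes in RWPE-1, at 0.144 ± 0.109 RPKM.

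**Figure D1:**
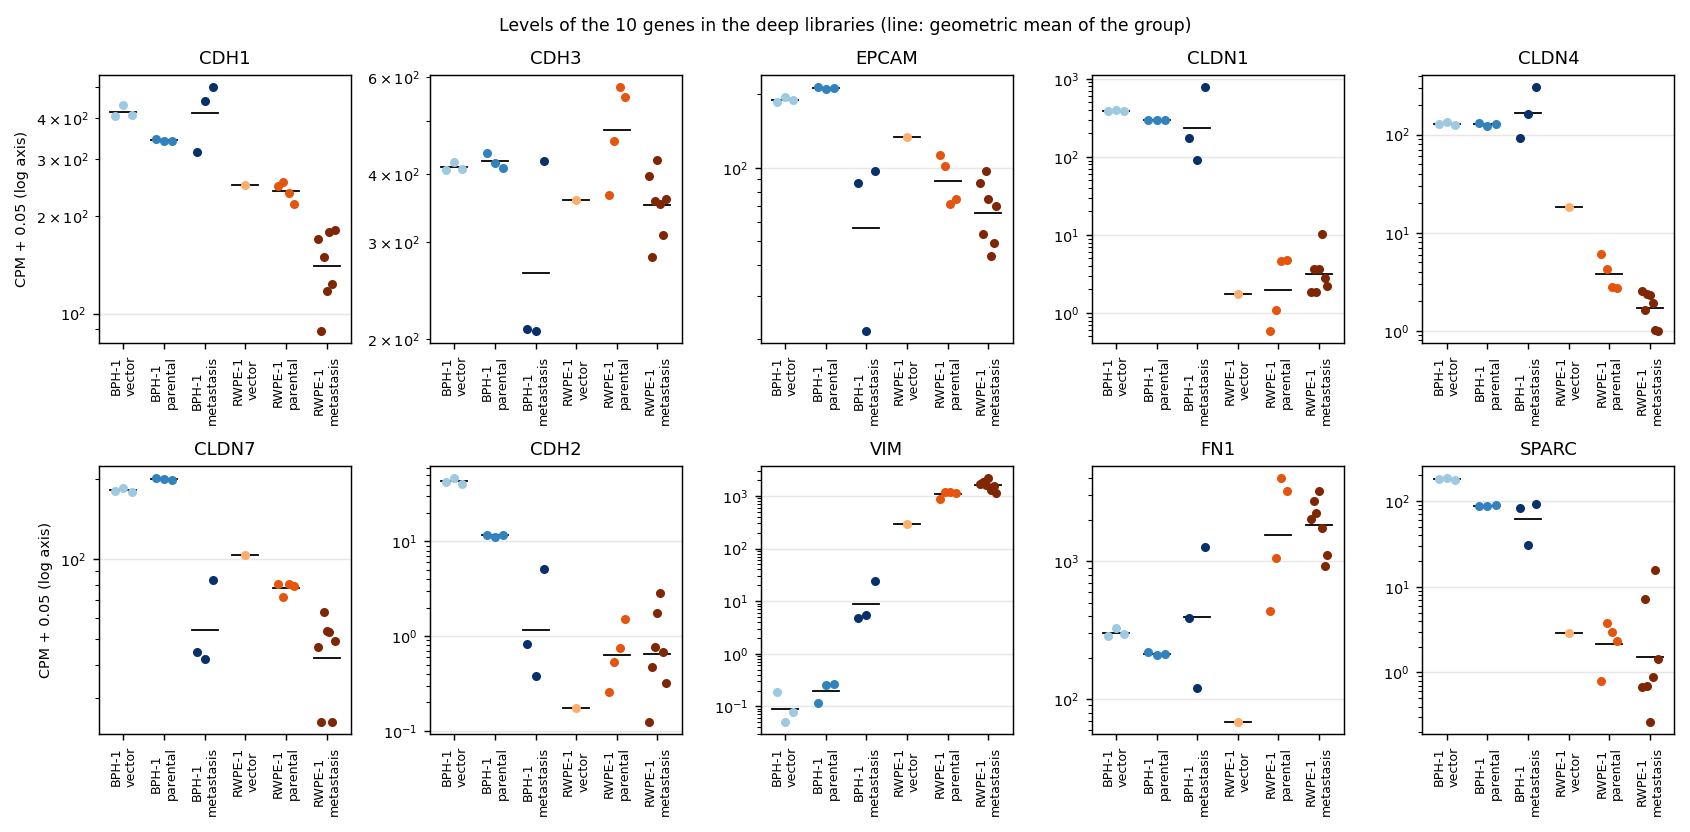
CPM plus 0.05 on log axes for each of the 10 genes (panels, each with its own scale) in the 6 groups; a point is 1 of 21 deep libraries and a line the geometric mean of the group. Among parental libraries VIM and FN1 lie higher in RWPE-1 and CLDN1, CLDN4, CDH2 and SPARC lie higher in BPH-1, and CDH1 is lower in all 7 RWPE-1 metastasis-derived lines than in the 4 parental libraries.

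RWPE-1 cells with C-Raf were compared with the single RWPE-1 vector control, which allows no test. VIM stood at 293 CPM in the vector control and at 890, 1194, 1190 and 1155 CPM in parental 1 to 4, which is 3.04 to 4.07 times the control. FN1 stood at 68.1 CPM in the control and at 434, 1059, 4010 and 3220 CPM in the parental libraries, between 6.37 and 58.9 times the control. These are the genes among the 10 that were at least 2-fold above the control in every parental library, as 4.19% of 13477 genes were. CLDN4, a claudin of simple and glandular epithelia, was the one gene at least 2-fold below it in every parental library, with 18.3 CPM against 5.97, 4.25, 2.75 and 2.70 CPM, as 1.42% of the genes were. CDH1 stayed near the control, with 249 CPM in the control and 248, 255, 235 and 218 CPM in the parental libraries. EPCAM (133 CPM, then 71.2 to 113) and CLDN7 (103 CPM, then 71.7 to 80.7) lay below the control in all 4 parental libraries, and CDH3 (359 CPM, then 365 to 577) lay above it. For SPARC (2.82 CPM, then 0.750 to 3.69) and CLDN1 (1.71 CPM, then 0.540 to 4.73) the control lay inside the parental range, and CDH2 went from 0.122 CPM to between 0.210 and 1.46 CPM.

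The question of the next comparison was whether lines regrown from metastases differ from the C-Raf cells that were injected. In RWPE-1 edgeR called 0 of the 10 genes, with 0.0986% of 13190 genes called. At an unadjusted p below 0.05 stood 5 of the 10 (CDH1, CDH3, CLDN4, CLDN7 and VIM), against 7.85% of all genes tested, and DESeq2 called 1 of the 10, CDH1. Of the 10 genes, 3 (CDH1, CLDN4 and CLDN7) were lower in every metastasis-derived line than in any parental library, as 0.948% of all genes tested were, and none was higher in every line, as 0.758% were. The fitted difference was negative for 5 of the 6 epithelial genes, CLDN1 being the other, and positive for 3 of the 4 mesenchymal genes, FN1 being the other.

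CDH1 lies on the plus strand at chr16:68737225-68835548 (GRCh38, GENCODE 29). Its level in the 7 RWPE-1 metastasis-derived lines was 88.5 CPM at the lowest (LN1B), 149 CPM at the median and 182 CPM at the highest (Bone6). The parental libraries, at 218 to 255 CPM, and the vector control, at 249 CPM, all lay above these lines. The log2 difference was -0.73 ± 0.17 (SE, lower in 7 of 7 lines), with an adjusted p of 0.198 in edgeR and 0.00837 in DESeq2. The groups were also apart within each table. In the first, 3 lines held 88.5 to 170 CPM against 248 in parental 1, and in the second, 4 lines held 117 to 182 CPM against 218 to 255 in 3 parental libraries.

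CDH3 is the neighbour of CDH1 on the same strand (chr16:68636189-68722616), with 14608 bases between the end of CDH3 and the start of CDH1. Its lines ran from 282 CPM (LN1B) over a median of 356 to 424 CPM (Spine2), and overlapped with parental 1 (365 CPM) but not with parental 2 to 4 (459, 577 and 552 CPM). The log2 difference was -0.46 ± 0.14 (SE, adjusted p = 0.333), and within the first table it was -0.08. The ratio of CDH3 to CDH1 per length was 1.43 in the vector control, 1.46 to 2.51 in the parental libraries and 1.95 to 3.58 in the lines. These ranges overlapped. CDH2 (chr18:27950966-28177446, minus strand), whose gain beside a loss of CDH1 is called the cadherin switch, stayed between 0.0733 CPM (LN1A) and 2.82 CPM (Bone4) with a median of 0.629 CPM. Its highest level per length was 0.0197 times that of CDH1 in the same library, and its log2 difference was 0.40 ± 0.79 (SE, adjusted p = 0.934), or -0.18 without Bone4.

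CLDN7 (chr17:7259903-7263983, minus strand) and CLDN4 (chr7:73799542-73832693, plus strand) form tight junction strands, and CLDN7 also binds EPCAM on the basolateral membrane. CLDN7 stood at 80.7, 71.7, 80.3 and 78.9 CPM in the parental libraries and at 24.4 (LN1B and Bone5), 49.1 (median) and 63.1 CPM (Spine) in the lines. CLDN4 stood at 2.70 to 5.97 CPM in the parental libraries and at 0.950 (Bone6), 1.86 (median) and 2.49 CPM (LN1A) in the lines. Neither claudin overlapped between the groups, with log2 differences of -0.80 ± 0.24 for CLDN7 and -1.14 ± 0.32 for CLDN4 (SE, adjusted p of 0.334 and 0.301). EPCAM (chr2:47345158-47387601, plus strand), a homophilic adhesion molecule of simple epithelia, ran from 43.8 CPM (Bone4) over 69.8 to 96.9 CPM (Spine). It overlapped with the parental libraries at 113, 102, 71.2 and 74.4 CPM (log2 difference -0.41 ± 0.22, SE, adjusted p = 0.690). CLDN1 (chr3:190305701-190322475, minus strand), the claudin of the skin barrier, was between 1.81 and 10.2 CPM in the lines and overlapped as well (log2 difference 0.44, and -0.051 without Bone4).

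VIM (chr10:17228259-17237593, plus strand) stood at 1154 CPM at the lowest (Bone6), 1634 CPM at the median (Spine) and 2190 CPM at the highest (Spine2) of the 7 lines. Of these, 6 lay above the highest parental library (1194 CPM) and Bone6 lay just below the second table's lowest (1155 CPM). The log2 difference was 0.55 ± 0.17 (SE, adjusted p = 0.341). It was 0.94 in the first table, where the 1 parental library held 890 CPM, and 0.39 in the second. VIM per length was 1.41 times CDH1 in the vector control, 4.30 to 6.35 times in the parental libraries and 7.61 to 24.6 times in the lines. These values did not overlap, but the vector control is a single library. CDH1 alone was already lower in every line than in any parental library, and ratios of other gene pairs were not examined. FN1 (chr2:215360440-215436172, minus strand) ran from 925 CPM (Bone5) over 2016 (LN1A) to 3250 CPM (Spine2), inside the parental range of 434 to 4010 CPM, with a log2 difference of -0.12 ± 0.52 (SE, adjusted p = 0.973). Its sign differed by table, at 2.43 in the first and -0.65 in the second, and it was 0.35 without parental 3.

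SPARC (chr5:151661096-151687165, minus strand), a collagen-binding protein that fibroblasts and bone cells secrete, was at 0.213 to 1.39 CPM in 5 of the lines, at 7.21 CPM in LN1B and at 15.7 CPM in Bone5. Parental libraries held 0.750 to 3.69 CPM. In Bone5 the fibroblast collagen COL3A1 stood at 22 CPM and the proteoglycan DCN at 7.37 CPM, and in LN1B DCN stood at 5.35 CPM, while the summed level of the 8 stromal fibroblast markers was 13.6 to 64.6 CPM in the lines and 9.54 to 24.5 CPM in the parental libraries. Of these 8 markers 3 were tested in the RWPE-1 lines and edgeR called 0, and COL3A1 and DCN were named after their values were seen. The part of these markers in the SPARC values was not tested. Without Bone5 the log2 difference of SPARC went from 0.65 to -0.41.

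**Figure D2:**
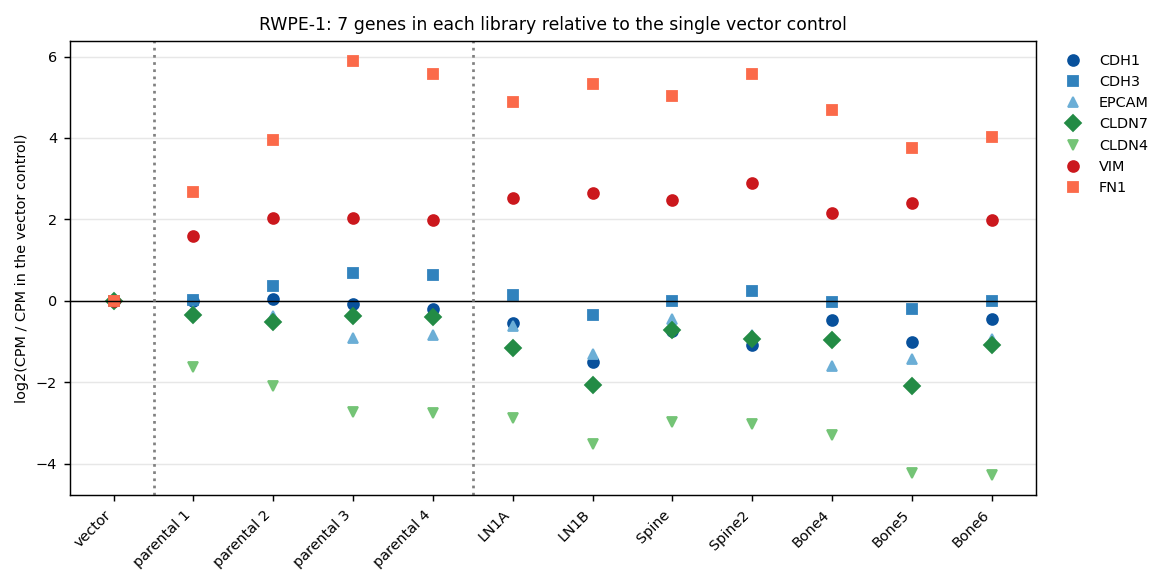
Log2 ratio of CPM to the single RWPE-1 vector control (y axis) for 7 of the genes in each of the 12 RWPE-1 libraries (x axis; dotted lines separate vector control, parental and metastasis-derived libraries). VIM and FN1 lie above 0 and CLDN4 below 0 in every C-Raf library, whereas CDH1 leaves the level of the control only in the 7 metastasis-derived lines, down to 88.5 CPM in LN1B.

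Genes whose log2 CPM followed CDH1 or VIM most closely over the 12 RWPE-1 libraries were looked for among 11966 protein-coding genes. For CDH1 they were TMEM30B (Pearson r = 0.950), C1orf210 (0.940) and ESRP1 (0.919), an epithelial splicing regulator that ran from 54.7 to 189 CPM. For VIM they were PRSS3 (0.978), MGAT5 (0.970) and HS3ST3A1 (0.968). These correlations describe 12 libraries that share stages and tables.

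The sequences upstream of transcription start show where epithelial genes carry the E-box CACCTG, which reads CAGGTG on the other strand and is the core that ZEB and Snail repressors bind. RefSeq windows of 250 bases before the start (GRCh38.p14) were at hand for CLDN1, CLDN4, CLDN7, CDH2, VIM, FN1 and SPARC, and these were searched. No window was at hand for CDH1, CDH3 and EPCAM, so their upstream sequences were not searched. One window, that of the downstream start of CLDN7 (chr17:7262479-7262728, minus strand), holds 4 matches, and the other 8 windows hold 0. Of all 34943 windows, 17.5% hold at least 1 match and 0.120% hold 4 or more. The matches lie in an exon of another CLDN7 transcript (chr17:7261821-7262945), in its untranslated part, and are shown with the motif in capitals, because CLDN7 is the gene whose level fell in the comparison pooled over both lines.
CLDN7, chr17:7262635-7262664: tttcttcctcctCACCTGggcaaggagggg
CLDN7, chr17:7262596-7262625: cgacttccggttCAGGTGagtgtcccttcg
CLDN7, chr17:7262479-7262508: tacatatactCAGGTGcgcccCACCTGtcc
A match describes these letters and not binding.

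The window of VIM (chr10:17227991-17228240, plus strand) is given because VIM had the largest log2 difference of the 10 genes between the parental cells of both lines. It holds no E-box and no AP-1 site (TGAGTCA, on the other strand TGACTCA, in 4.22% of all windows) and 1 GC box (GGGCGG, on the other strand CCGCCC, in 42.5% of all windows), which is in capitals.
VIM: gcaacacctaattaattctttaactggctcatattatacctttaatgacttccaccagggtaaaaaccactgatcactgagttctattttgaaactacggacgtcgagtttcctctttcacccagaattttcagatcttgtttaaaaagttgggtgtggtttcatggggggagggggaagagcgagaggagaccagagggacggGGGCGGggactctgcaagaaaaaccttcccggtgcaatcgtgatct

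In BPH-1, C-Raf parental cells were compared with vector control. VIM, at 0, 0.0289 and 0.138 CPM in the controls and 0.0669, 0.200 and 0.220 CPM in the parental libraries, did not pass the filter on low counts. Of the 9 genes tested, 5 were lower and 2 higher, where 29.4% of 13233 genes were lower, 30.4% higher and 59.8% either. The mesenchymal genes were among those that fell. CDH2 stood at 42.2, 46.8 and 40.4 CPM in the controls and at 11.8, 11.2 and 11.8 CPM in the parental libraries, and fell by 1.89 ± 0.06 on the log2 scale (SE, adjusted p = 2.98e-21). SPARC stood at 183, 186 and 179 CPM and then at 86.6, 88.0 and 89.5 CPM, and fell by 1.05 ± 0.03 (adjusted p = 6.38e-22). FN1 stood at 288, 326 and 297 CPM and then at 219, 210 and 213 CPM, and fell by 0.50 ± 0.03. For none of the 3 did the groups overlap, but how many of all genes show this here was not counted.

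The epithelial genes moved less and in both directions. CDH1 stood at 407, 441 and 409 CPM in the controls and at 347, 342 and 342 CPM in the parental libraries, a log2 difference of -0.28 ± 0.03 (SE, adjusted p = 1.73e-09). CLDN1 fell from 393 ± 10.1 to 297 ± 2.45 CPM (mean ± SD, n = 3 each). EPCAM rose from 190 ± 5.08 to 212 ± 2.56 CPM and CLDN7 from 181 ± 3.19 to 199 ± 1.89 CPM. CDH3 (411 ± 7.86 and 422 ± 13.9 CPM) and CLDN4 (130 ± 4.64 and 128 ± 4.82 CPM) were not called, and without vector control 2 CDH3 was (log2 difference 0.058, adjusted p = 0.0432). The spread between these libraries was small, with a common coefficient of biological variation of 2.43% here against 35% among the C-Raf parental and deep metastasis-derived libraries of BPH-1. When all deep BPH-1 libraries shared 1 estimate of the spread, 0 of the 9 genes were called.

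In the BPH-1 metastasis-derived lines VIM rose and EPCAM and CLDN7 fell against the C-Raf parental cells. These are the 3 of 10 genes called in the 3 deep lines, 1 higher and 2 lower, where 21.0% of 13455 genes were higher, 16.8% lower and 37.7% either. VIM stood at 0.0669, 0.200 and 0.220 CPM in the parental libraries (2, 6 and 6 counts) and at 4.76, 5.42 and 24.5 CPM in bone R069, bone R072 and thymus R075 (135, 66 and 644 counts). The log2 difference was 6.17 ± 0.92 (SE, adjusted p = 0.00482). VIM thus rose in each deep line, to a level below the 293 CPM of the RWPE-1 vector control.

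CLDN7 stood at 201, 199 and 197 CPM in the parental libraries and at 44.6, 42.1 and 83.4 CPM in the lines, and fell by 1.75 ± 0.29 on the log2 scale (SE, adjusted p = 0.00650). EPCAM stood at 214, 209 and 212 CPM and then at 86.5, 21.5 and 97.0 CPM, and fell by 1.58 ± 0.51 (SE, adjusted p = 0.04999). Both genes were lower in 3 of 3 lines. The call of EPCAM was lost, with adjusted p from 0.0983 to 0.119, without bone R069 or without any 1 of the parental libraries, and its adjusted p was 0.0757 with no composition scaling.

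CDH1 stood at 347, 342 and 342 CPM in the parental libraries and at 314, 453 and 501 CPM in the 3 lines, which lie on both sides of the parental level (log2 difference 0.37 ± 0.23, SE, adjusted p = 0.250). CDH3 stood at 209 CPM in bone R069, at 207 CPM in bone R072 and at 422 CPM in the library titled thymus R075. The last of these lay within the parental range of 410 to 437 CPM. CDH2 was lower in 3 of 3 lines, at 0.776, 0.328 and 5.11 CPM against 11.2 to 11.8 CPM, with a log2 difference of -2.40 ± 0.87 (SE, adjusted p = 0.0720 in edgeR and 0.0108 in DESeq2). CLDN1 (173, 90.3 and 794 CPM against 294 to 299), CLDN4 (92.9, 161 and 308 CPM against 122 to 132) and FN1 (388, 121 and 1277 CPM against 210 to 219) were highest in thymus R075, and SPARC stood at 83.6, 30.5 and 92.9 CPM against 86.6 to 89.5. Without thymus R075, 6 of the 10 genes were called, with CDH2 at -4.19 (adjusted p = 0.00184), CDH3 at -0.95 (adjusted p = 0.00535) and CLDN1 at -1.10 (adjusted p = 0.0291) newly lower. The share of all genes called in that fit is not given here. Leaving out single libraries moved the count over all genes between 1957 and 8312, from 5077 with none left out. Without bone R072, FN1 was called higher at 1.98 (adjusted p = 0.0172).

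Values that moved with these lines were the RN7SL1 share given above, a TMM factor of 0.592 in bone R072 against 0.947 to 1.10 in the other deep libraries, and marker sums. The 8 stromal fibroblast markers summed to 52.9 to 73.3 CPM in the deep lines and to 12.2 to 12.5 CPM in the parental libraries, and COL1A1 made up 50 to 70.5 CPM of them, while DCN was at most 0.0381 CPM. Haematopoietic markers summed to 17.7 to 65.5 CPM in the deep lines and to 127 to 133 CPM in the parental libraries. They moved both ways. Of the 4 tested, SPI1 was called higher (log2 difference 5.90), CD74 lower (-1.96) and 2 were not called. The 6 endothelial markers summed to 2.86 to 40.6 CPM against 0.836 to 0.935 CPM. Only 1 of these 6, VWF, passed the filter on low counts, and it was called higher (log2 difference 4.60). The part of these markers in the results was not tested.

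**Figure D3:**
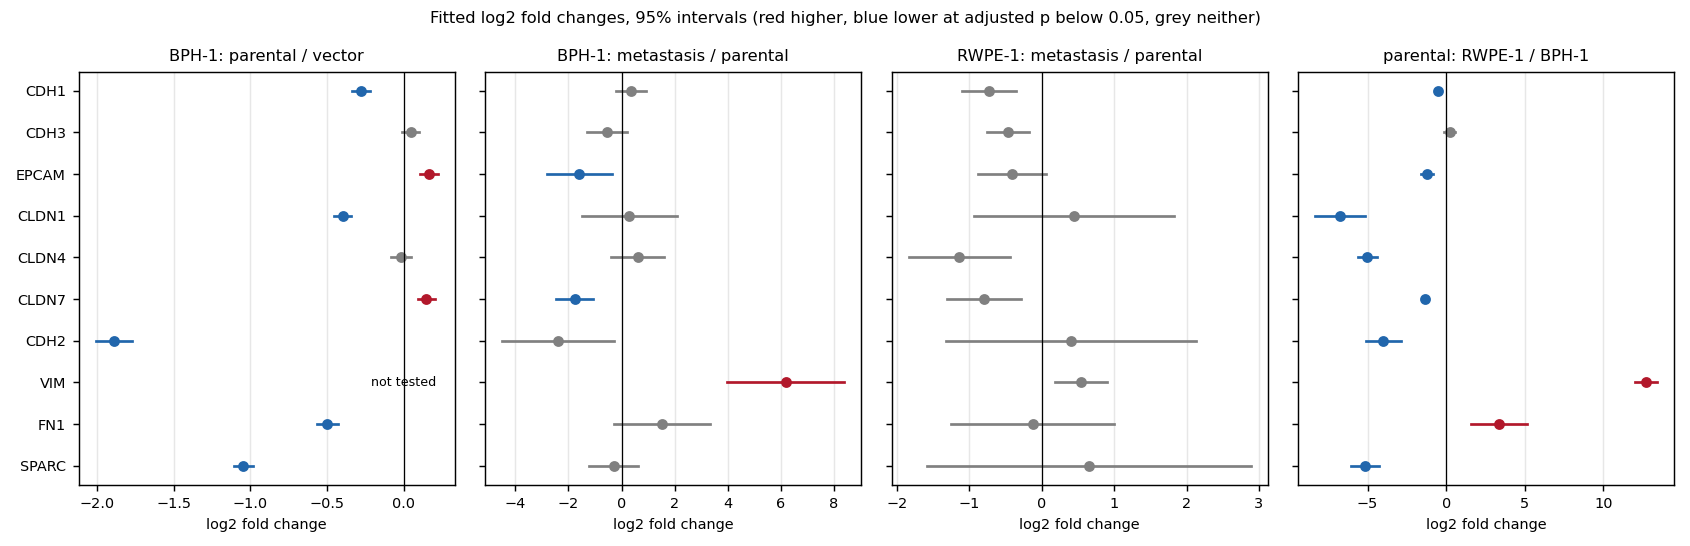
Fitted log2 fold change (x axis) with 95% intervals for the 10 genes (rows) in 4 comparisons; red marks genes called higher, blue genes called lower, grey genes not called. VIM is called higher in BPH-1 metastasis-derived lines and in RWPE-1 parental cells, and in RWPE-1 metastasis-derived lines the intervals of CDH1, CDH3, CLDN4, CLDN7 and VIM lie on 1 side of 0 without a call.

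The 3 shallow libraries held too few counts for most of these genes. VIM had 27 counts in bone R071, which is 58.1 CPM, here without scaling, with a 95% exact Poisson interval of 38.3 to 84.5, 2 counts in bone R075 (interval 2.18 to 65) and 0 counts in bone R074, with an upper bound of 27.8 CPM from the same interval. The intervals of bone R071 and bone R075 lay above the 0.0669 to 0.220 CPM of the BPH-1 parental libraries, the latter on 2 counts only. CDH1 had 39, 32 and 3 counts in bone R071, bone R074 and bone R075, which is 83.9, 242 and 27.0 CPM. EPCAM had 3, 0 and 0 counts, and its upper bounds of 18.9, 27.8 and 33.2 CPM all lay below the 209 to 214 CPM of the parental libraries. CLDN7 had 1, 8 and 0 counts, with upper bounds of 12, 119 and 33.2 CPM against 197 to 201 CPM. The bounds of CDH3 (76.8, 77.3 and 50.1 CPM against 410 to 437) also lay below the parental libraries. So did those of CLDN1 (31, 149 and 50.1 CPM against 294 to 299) and CDH1 (115, 341 and 78.9 CPM against 342 to 347). For CLDN4 the bounds were 61.2 and 50.1 CPM in bone R071 and bone R075, against 122 to 132 CPM. Its interval in bone R074 was 235 to 437 CPM. FN1 had 90, 6 and 14 counts and SPARC 32, 4 and 3. SPI1, a myeloid transcription factor, stood at 570, 113 and 216 CPM in these libraries and at 0.599 to 1.45 CPM in the deep lines, and its part in these values was not tested. Intervals cover counting error only. As shares of protein-coding counts over all 6 lines, the log2 ratio to the parental libraries was -2.59 for EPCAM, -2.36 for CLDN7 and 6.83 for VIM, and that of CDH1 turned to -0.35.

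**Figure D4:**
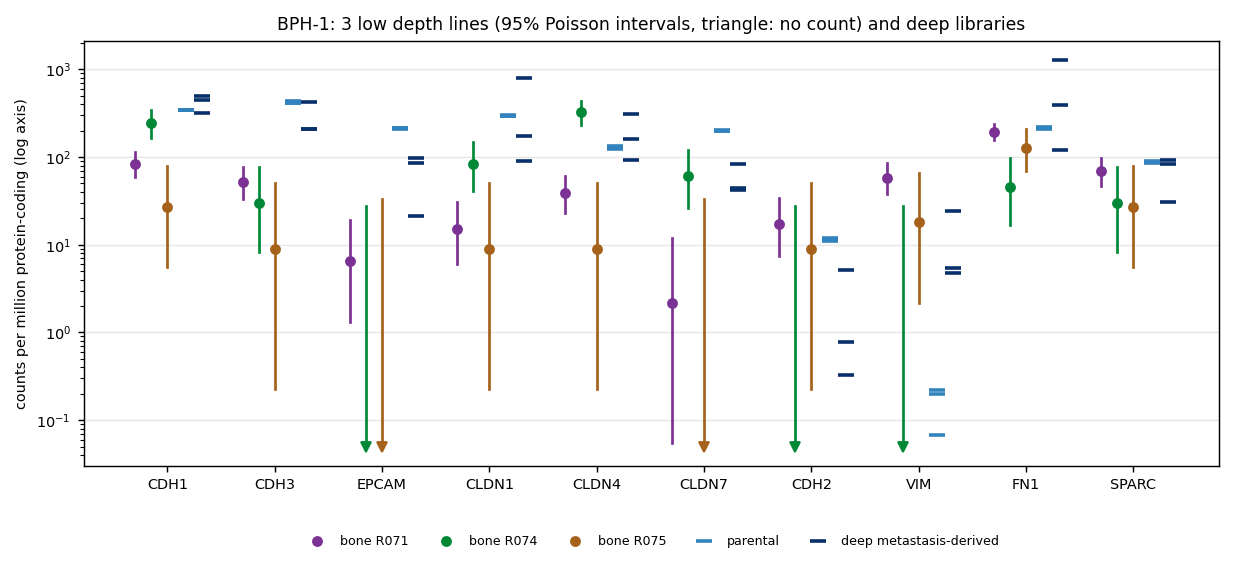
CPM (log axis, the shallow libraries unscaled) of the 10 genes in the 3 shallow BPH-1 metastasis-derived libraries with 95% Poisson intervals (triangles: 0 counts) beside the BPH-1 C-Raf parental and deep metastasis-derived libraries (dashes). The intervals of CDH1, CDH3, EPCAM, CLDN1 and CLDN7 lie below the parental dashes in all 3 shallow libraries, that of CDH1 in bone R074 only just. The interval of FN1 lies below them in bone R074, and that of SPARC in bone R074 and bone R075.

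RWPE-1 and BPH-1 C-Raf parental cells were then compared with each other. The lines differ in origin, medium and table, which cannot be told apart. Of the 10 genes, 2 were higher and 7 lower in RWPE-1, where 38.0% of 13533 genes were higher and 36.0% lower. VIM had a log2 difference of 12.72 ± 0.31 (SE, adjusted p = 1.42e-07) and FN1 of 3.36 ± 0.76 (SE, adjusted p = 0.00452). The log2 difference was -6.75 ± 0.68 for CLDN1, -5.17 ± 0.39 for SPARC, -5.02 ± 0.27 for CLDN4 and -4.0 ± 0.48 for CDH2 (SE, with adjusted p of at most 0.000161). CLDN7, EPCAM and CDH1 were lower by smaller log2 differences of -1.35 ± 0.06, -1.23 ± 0.16 and -0.52 ± 0.07 (SE). CDH3 was not called at 0.21 ± 0.16 (SE, adjusted p = 0.246), and was called without RWPE-1 parental 1 (adjusted p = 0.0157). In the vector controls the order of FN1 was the other way, with 68.1 CPM in RWPE-1 against 288 to 326 CPM in BPH-1, while VIM stood at 293 CPM against at most 0.138 CPM.

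Whether the metastasis-derived lines departed from their parental cells to the same extent in both cell lines was tested by an interaction term, with 44.5% of 14271 genes called. It was called for 3 of the 10. For CDH1 the RWPE-1 difference was lower than that of BPH-1 by 1.05 on the log2 scale (log2 value -1.05 ± 0.29, SE, adjusted p = 0.00786), for CLDN4 the value was -1.71 ± 0.52 (adjusted p = 0.0135) and for VIM -5.61 ± 0.72 (adjusted p = 1.96e-05). The call of CDH1 was lost with the 3 shallow libraries kept (adjusted p = 0.362) and with no composition scaling (adjusted p = 0.0857). The values for CLDN7 (1.00 ± 0.40) and EPCAM (1.20 ± 0.50) missed the threshold with adjusted p of 0.0537 and 0.0627, and DESeq2 called both.

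Pooled over both cell lines with a term for cell line, C-Raf parental cells against vector control gave 0 of 10 genes called by edgeR and by DESeq2, with 0.814% of 15236 genes called by edgeR. At an unadjusted p below 0.05 in edgeR stood 2 of the 10 (VIM and CDH2), against 1434 of the 15236 genes. Metastasis-derived lines against parental cells gave 1 of 10, with 2.51% of the genes called. This was CLDN7, which fell by 1.18 ± 0.21 on the log2 scale (SE, adjusted p = 0.00544). It was lower than every parental library of its own cell line in 10 of 10 deep lines. That count rests on the same values as the call, and how many of all genes show it was not counted. EPCAM (-0.87 ± 0.26, adjusted p = 0.0782) and CDH3 (-0.50 ± 0.14, adjusted p = 0.0630) missed the threshold in edgeR and were called by DESeq2, and CDH3 was also called without RWPE-1 parental 1 (adjusted p = 0.0441).

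The partners of these genes in the junctions were described by lists. For all lists in the RWPE-1 lines, 7.85% of all genes stood at an unadjusted p below 0.05, and DESeq2 called 166 genes in all. Desmosomes anchor keratin filaments at cell borders. In the deep BPH-1 metastasis-derived lines 6 of 9 desmosome genes were higher and 1 lower, against 21.0% and 16.8% of all genes, with a median log2 difference of 2.30 against 0.075 over all genes. The desmosomal cadherin DSC2 went from 17.2 to 19.3 CPM in the parental libraries to 371 to 1038 CPM in the lines (log2 difference 5.38, adjusted p = 0.00152) and the plaque protein DSP from 255 to 273 CPM to 1679 to 13549 CPM (4.63, adjusted p = 0.00975), while the plaque protein PKP2 fell by 0.98. In RWPE-1 lines 0 of the 9 were called by edgeR, with 1 at an unadjusted p below 0.05 and 0 by DESeq2, and the interaction was called for 7 of 9, 1 higher and 6 lower, against 44.5% of all genes in either direction.

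Of 9 adherens junction partners, 1 was higher and 2 lower in the BPH-1 metastasis-derived lines, a share close to the 37.7% of all genes called there, with PVRL4 (nectin-4) rising by 4.66 and VCL (vinculin) at -0.99 on the log2 scale. In RWPE-1 lines 0 of 9 were called by edgeR, with 1 at an unadjusted p below 0.05, and DESeq2 called JUP (plakoglobin), named here after its value was seen. The median log2 difference there was -0.08, against 0.009 over all genes.

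Among 16 further tight junction genes, 10 were lower and 2 higher in BPH-1 parental cells against vector control, where 29.4% of all genes were lower and 30.4% higher. The largest falls were TJP3 (-1.21) and CLDN3 (-0.94). In the BPH-1 metastasis-derived lines 4 were higher and 2 lower, a share close to the 37.7% of all genes called. CLDN3 went from 1.47 to 1.77 CPM to 0.0353 to 0.191 CPM (-3.59, adjusted p = 0.00556), and the polarity gene PARD6B had a log2 difference of 2.86. In RWPE-1 lines edgeR called 0 of 13, with 6 at an unadjusted p below 0.05, against 7.85% of all genes. The difference was negative for 11 of 13, with a median of -0.22 on the log2 scale against 0.009 over all genes. DESeq2 called 2, CGN (cingulin) and CRB3 (crumbs polarity protein), named after their values were seen. CRB3 was also the tight junction gene called in the pooled comparison (-0.80, adjusted p = 0.00768).

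Of 16 other classical and atypical cadherins, 7 were expressed enough to be tested in BPH-1 parental cells against vector control, 5 higher and 2 lower, where 30.4% of all genes were higher and 29.4% lower. Levels were low, with CDH6 going from 0.492 to 0.597 CPM to 1.36 to 1.84 CPM (log2 difference 1.57). In the BPH-1 metastasis-derived lines 3 of 9 were higher and 2 lower, against 21.0% and 16.8% of all genes. CDH16 (kidney cadherin) stood at 2.40 to 4.35 CPM there against at most 0.0334 CPM. In RWPE-1 lines edgeR called 0 of 4, with 1 at an unadjusted p below 0.05, and DESeq2 called CDH13, named after its value was seen. In RWPE-1 parental cells 7 of 8 tested were lower than in BPH-1, against 36.0% of all genes, led by CDH5 (-7.76) and CDH6 (-5.63).

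Of 20 matricellular and mesenchymal genes, 12 of 18 tested were lower and 4 higher in BPH-1 parental cells against vector control, where 29.4% of all genes were lower and 30.4% higher. These included FAP (-3.02) and CTGF (-2.42) among the falls and NT5E (1.86) among the rises. In the BPH-1 metastasis-derived lines 6 were higher and 2 lower, where 21.0% of all genes were higher and 16.8% lower, with FAP (4.29) and the matrix protein TNC (3.47) higher and CTGF (-3.63) and smooth muscle actin ACTA2 (-3.0) lower. TNC stood at 445 to 1566 CPM in these lines and at 92.0 to 101 CPM in the parental libraries. In RWPE-1 lines edgeR called 0 of 18, with 1 at an unadjusted p below 0.05, and DESeq2 called TNC, which stood at 25.3 to 47.8 CPM in the lines and at 27.2 to 128 CPM in the parental libraries. THBS2 (thrombospondin-2) was the leading gene of the list in RWPE-1 parental cells against BPH-1 (6.07).

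The list of transcription factors and epithelial regulators holds the repressors of the SNAI, TWIST and ZEB families and the epithelial factors GRHL, OVOL and ESRP. ZEB1 stood at 0.398 CPM in the RWPE-1 vector control, at 2.88 to 6.07 CPM in the parental libraries and at 9.11 to 23.6 CPM in the metastasis-derived lines, which did not overlap. Its log2 difference in RWPE-1 was 1.80 ± 0.32 (SE, adjusted p = 0.0625 in edgeR), and DESeq2 called it, the 1 of 12 genes it called. Of the 12 genes edgeR called 0 there, with 5 at an unadjusted p below 0.05, against 7.85% of all genes. In the pooled comparison ZEB1 rose by 1.87 (adjusted p = 0.0111). In BPH-1 ZEB1 stood at 0.0668 to 0.134 CPM in the parental libraries and at 0.282 to 0.572 CPM in the deep lines, and was not tested there because it did not pass the filter on low counts. ZEB2 went from 0.0669 to 0.167 CPM to 3.53 to 26.6 CPM (log2 difference 6.76, adjusted p = 0.00461). GRHL2, which holds epithelial genes on, stood at 97.0 CPM in the RWPE-1 vector control, at 21.9 to 64.0 CPM in the parental libraries and at 8.32 to 33.3 CPM in the lines. In BPH-1 it fell by 0.55 from vector control to parental cells (adjusted p = 2.10e-14).

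**Figure D5:**
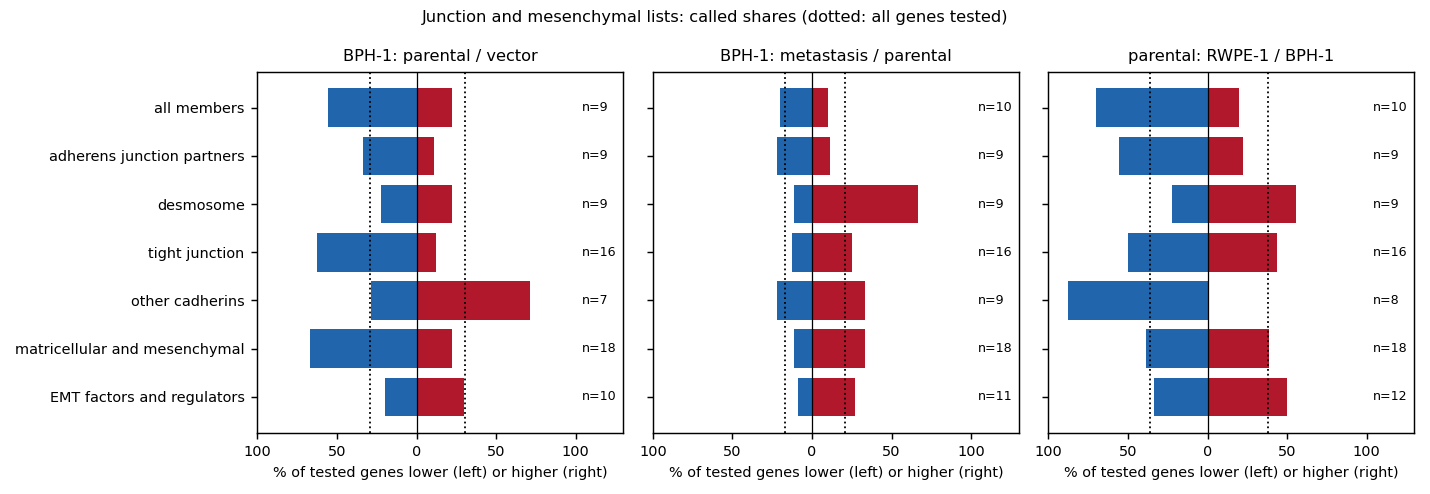
Share of tested genes called lower (blue, left) or higher (red, right) in the list of 10 and 6 related lists for 3 comparisons, with the number tested; dotted lines mark the shares over all genes tested. Desmosome genes exceed the dotted line on the higher side in the BPH-1 metastasis-derived lines, with 6 of 9 higher against 21.0% of all genes.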

How the data were processed

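The study sequenced mRNA of BPH-1 and RWPE-1 cells. The authors deposited 4 tables of expected counts per gene symbol, made with RSEM after STAR alignment on hg38 (names from the submitters' processing notes and the TOIL pipeline of the methods), before their coding gene filter and ComBat-seq step. The annotation is not given in the sources used here. Expected counts were rounded to whole numbers, and the 19216 symbols that match protein-coding genes of GENCODE 29 (863 of all symbols through an older name) were kept. All 24 columns matched a sample, and 0 were left over. Total counts ran from 25997814 to 52851374 in the 21 deep libraries and from 9035970 in the 3 shallow ones, where single genes rest on few counts. Samples were grouped by the treatment label.

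Genes passing filterByExpr were scaled by TMM and tested with edgeR 4.0.16 (glmQLFit, glmQLFTest) in R 4.3.3, with only the groups compared in each fit and the 3 shallow libraries left out. Standard errors were derived from the F statistic. Alternatives were DESeq2 1.42.0 (an adjusted p it left out stayed out), RLE factors, no filter, all genes of the tables, the shallow libraries kept, a table term, within-table values, a wider fit, a replicate block and each library left out. The setting without composition scaling and the pooled leave-one-out fits were chosen after seeing the data. Of 200 genes changed in simulated counts, those changed 2-fold were recovered in 85% for the RWPE-1 comparison (13120 genes) and in 6% for the BPH-1 comparison of metastasis-derived and parental cells (13356 genes). The simulation gave all genes of a comparison the same spread and had no table effect, so these shares need not hold in the data. A gene that was not called may still have changed 2-fold. RPKM uses exon lengths of GENCODE 29. The text names all 10 genes in each comparison, at most the 2 largest rises and falls called per further list and comparison, and the 3 genes most like CDH1 and VIM. The genes and lists were chosen with earlier results of these data known. Sites of metastasis were not compared. The overexpressed gene is not reported here.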

Additional observations from a re-analysis of the deposited data

Results flagged for a closer look

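CLDN1 stood at 10.2 CPM in Bone4, apart from the other 6 RWPE-1 metastasis-derived lines at 1.81 to 3.66 CPM. VIM stood at 889.5 CPM in parental 1, apart from the other 3 RWPE-1 parental libraries at 1155 to 1194 CPM. Parental 1 is the parental library in the table of the vector control. These are 2 of 20 groups of values examined, and chance marks about 1 in 20.

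The difference between metastasis-derived and parental cells was not the same in both cell lines for 3 of the 10 genes by the interaction test of edgeR. That test called 44.5% of all 14271 genes. The log2 value of RWPE-1 minus BPH-1 was -1.05 for CDH1, -1.71 for CLDN4 and -5.61 for VIM. The call of CDH1 was lost with the 3 shallow libraries kept (adjusted p = 0.362) and with no composition scaling (adjusted p = 0.0857). CDH1 and CLDN4 were lower in all 7 RWPE-1 lines than in their parental libraries, while the 3 deep BPH-1 lines lay on both sides of theirs. VIM started at 0.220 CPM or less in BPH-1 parental cells and at 890 CPM or more in RWPE-1 parental cells.

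In the 3 shallow BPH-1 libraries, which enter no test, VIM stood at 58.1 CPM in bone R071 and at 18 CPM in bone R075, against at most 0.138 CPM in the vector controls. The latter rests on 2 counts, with a 95% exact Poisson interval of 2.18 to 65 CPM. CLDN4 stood at 325 CPM in bone R074 (43 counts, 95% exact Poisson interval 235 to 437), against at most 135 CPM in the vector controls.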

How the results depend on the processing

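In the 3 shallow BPH-1 libraries, depth left 0 to 90 counts for each of the 10 genes. For single genes, 880 of the values under an alternative kept direction and side of the threshold, 19 passed it newly, 14 no longer passed it, 18 turned and 7 moved. Where a call changed, the cause was not tested.

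With DESeq2, 1 of the 10 genes was called in RWPE-1 metastasis-derived lines (166 genes in all), 6 in the interaction, and 3 in the pooled comparison of metastasis-derived lines (938 genes). The pooled comparison with vector control gave 456 genes. With all genes of the tables kept, RWPE-1 gave 20 genes, the interaction 5 of the 10, and the pooled metastasis comparison 3 of the 10 and 1781 genes. With the shallow libraries kept, BPH-1 metastasis-derived lines gave 2098 genes, the interaction 4180 and the pooled comparison with vector control 37, and the BPH-1 log2 differences turned to -0.28 for CDH1 and -0.56 for CLDN1. Without composition scaling, which moved the median of all genes in that comparison from 0.075 to -0.303, CDH1 turned to -0.043. With all deep BPH-1 libraries in the fit, 0 of the 10 genes and 378 genes in all were called in parental cells against vector control.

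Leaving out 1 library at a time gave 2 to 6 of the 10 genes and 1957 to 8312 genes in BPH-1 metastasis-derived lines, 4 to 40 genes in RWPE-1, 38 to 287 genes in the pooled comparison with vector control, and 1 to 2 of the 10 and 98 to 478 genes in the pooled metastasis comparison. The highest BPH-1 gene count came without bone R072 and the lowest without parental 1, the highest RWPE-1 count without Bone4 and the lowest without parental 3, and the 287 genes came without the RWPE-1 vector control. Log2 differences then turned for CLDN4 in BPH-1 parental cells (-0.041 to 0.011), for CLDN1 (-1.10 to 0.72) and SPARC (-0.56 to 0.032) in BPH-1 metastasis-derived lines, for CLDN1 (-0.051 to 0.84), CDH2 (-0.18 to 1.02), FN1 (-0.46 to 0.35) and SPARC (-0.41 to 0.93) in RWPE-1, and for CDH1 (-0.091 to 0.088) and CLDN4 (-1.21 to 0.60) against vector control pooled.

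With the replicate block, 7 of the 10 genes and 7682 genes were called in BPH-1 parental cells against vector control. The labels give both groups the same numbers but no shared origin, and same-numbered libraries correlated at 0.045, -0.047 and -0.038, so the numbers were not taken as pairs.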

Other observations

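Of 7 prostate epithelial markers, 3 were higher and 3 lower in the deep BPH-1 metastasis-derived lines than in the parental libraries, against 21.0% and 16.8% of all genes. The basal keratin KRT14 stood at 3123 to 6584 CPM in the lines against 319 to 332 CPM in the parental libraries (log2 difference 3.91, edgeR adjusted p = 0.00193), and KRT8, a simple keratin, stood at 84.4 to 194 CPM against 972 to 1007 CPM (-2.96, adjusted p = 0.00307). In RWPE-1 the same genes overlapped between the stages, with KRT14 at 983 to 3398 CPM in the lines and at 1680 to 3840 CPM in the parental libraries, and KRT8 at 140.5 to 318 and 177 to 237 CPM. The interaction was called for both genes (-4.10 for KRT14 and 3.22 for KRT8), as for 44.5% of all genes.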
